A study of Mus musculus with 12 samples.

Results

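The genes described here encode the machinery that copies DNA and the regulators that bring a cell from G1 into S phase. The group holds 43 genes, chosen by name, and all 43 were found by Ensembl identifier among the 32285 identifiers of the HSC count table and the 56980 of the macrophage count table. They were divided by role into 12 MCM and GINS genes, 4 of origin recognition and licensing, 8 of the polymerases, 6 of the clamp and clamp loader, 2 of Okazaki fragment maturation, 4 of nucleotide synthesis, 4 of cyclin E and E2F and 3 of histone supply.

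Bulk RNA sequencing was done on fetal liver cells of mouse embryos at E14.5, an age at which the liver is the main blood-forming organ. Both alleles of Jag1, a gene for a Notch ligand, were floxed in every embryo (Jag1 f/f), so the Cre negative controls carried the floxed alleles too. Cre positive embryos had in addition Vav-Cre, a transgene in which Vav regulatory sequences drive Cre recombinase in blood cells. Hematopoietic stem cells (HSCs, C57BL/6, sorted as DAPI- CD45+ Lin- cKit+ Sca1+ CD48- CD150+) and CD169+ macrophages (strain not named in the labels) were each taken from both genotypes, with 3 libraries in each of the 4 groups. Nothing in the labels ties a library to an embryo of its own, so p-values measure only the spread between libraries, which may be technical.

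Levels are given as CPM, the read count of a gene scaled to a fixed library size, here corrected by TMM, a method that removes differences in composition. In each list of values the Cre negative libraries come first and replicates run from 1 to 3. The HSC libraries held 51982064 to 77463770 reads. The Cre negative macrophage libraries held 17230019 to 24658205 reads and the Cre positive ones 2602934 to 5366990, so depth and genotype cannot be told apart in that sort. Jag1 itself was at 6.53, 6.87 and 1.16 CPM in the HSC controls and at 10.5, 0 and 19.5 CPM under the Cre positive label (edgeR unadjusted p = 0.615). The HSC libraries therefore did not show lower Jag1 under the Cre positive label, and which exons the allele loses is not given in the sources used here. In macrophages Jag1 measured 52.6, 21.1 and 26.3 CPM against 0, 10.6 and 6.79 CPM, without overlap (edgeR unadjusted p = 0.0946).

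DNA replication is prepared in G1, when the origin recognition complex, CDC6 and CDT1 load a ring of the subunits MCM2 to MCM7 onto DNA. In S phase CDC45 and the GINS complex join this ring to form the active helicase, primase with DNA polymerase alpha lays primers, and polymerases delta and epsilon extend them on the sliding clamp PCNA. Cyclin E with CDK2 and the E2F transcription factors drive the G1/S step, and many genes of the machinery are known E2F targets. Fetal liver HSCs, unlike most adult HSCs, divide actively.

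Promoter windows were searched for the binding word of E2F. RefSeq (GRCm38.p6) gave windows of 300 bases, from 250 before to 50 after a transcription start, for 35 of the 43 genes. The E2F words searched were TTTCCCGC, TTTCGCGC, TTTGCCGC and TTTGGCGC, on both strands and with overlapping matches allowed. At least 1 word stood in the windows of 14 of the 35 genes (40%), against 704 of 27025 genes with a window (2.61%). The 4 sequences that follow lie upstream of the RefSeq start, hold such a word and share no base with a GENCODE M21 exon. They are shown because they met these conditions, and not for their expression. In HSCs the helicase subunits Mcm5 and Mcm6 and the loading factor Cdc6 had negative differences. Pola1 had the most positive one of the members. A link between the words and these differences was not tested. Capitals mark the E2F words. Runs of 12 capitals are words on both strands that overlap. Mcm5 is at chr8:75109309-75109508 on the plus strand, Mcm6 at chr1:128359715-128359845 on the minus strand, Cdc6 at chr11:98907983-98908050 on the plus strand and Pola1 at chrX:93632256-93632323 on the minus strand. The Cdc6 stretch lies inside the annotated gene, outside its exons, and the other 3 lie before theirs. Each is read from 5′ to 3′ along its gene.
Mcm5: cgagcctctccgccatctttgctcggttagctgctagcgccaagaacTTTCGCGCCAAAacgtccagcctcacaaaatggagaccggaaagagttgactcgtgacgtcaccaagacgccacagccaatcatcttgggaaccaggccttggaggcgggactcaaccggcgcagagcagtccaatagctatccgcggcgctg
Mcm6: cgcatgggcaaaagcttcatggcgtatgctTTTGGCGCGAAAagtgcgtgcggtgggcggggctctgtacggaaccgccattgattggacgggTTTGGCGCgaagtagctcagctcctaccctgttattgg
Cdc6: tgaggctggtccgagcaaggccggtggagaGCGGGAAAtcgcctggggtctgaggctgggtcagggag
Pola1: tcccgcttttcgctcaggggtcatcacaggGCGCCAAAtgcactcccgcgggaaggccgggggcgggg
In Mcm5 the first of its 2 overlapping words began 153 bases before the start. Mcm6 had words beginning 110, 106 and 47 bases before the start. The word in both Cdc6 and Pola1 began 138 bases before it. By role, a word was found for 5 of 8 MCM and GINS genes with a window, 3 of 4 origin recognition and licensing genes, 3 of 6 polymerase genes and 0 of 4 nucleotide synthesis genes. The CCAAT word (CCAAT or ATTGG), which was also searched, stood in windows of 21 of the 35 members (60%) and of 41.1% of all genes. It was found in all 8 MCM and GINS genes with a window, and in 18 of 22 mitosis and G2/M genes, of which 1 had an E2F word. A match is a description of these letters and not a site of binding.

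In HSCs the 43 genes together were lower under the Cre positive label. Their summed level was 6800, 6090 and 5983 CPM in the controls and 5738, 5217 and 4897 CPM under that label. The groups did not overlap, and the mean went from 6291 ± 444 to 5284 ± 424 CPM (SD, n = 3 each). As a share of all counted reads the members took 0.626%, 0.611% and 0.612% against 0.590%, 0.534% and 0.487%, again without overlap. In the edgeR quasi-likelihood fit of all 13962 genes tested, 30 of the 43 members had a negative log2 fold change and 13 a positive one, where 50.3% of all genes tested were negative. The members' median log2 fold change was -0.30, against -0.00 over all genes tested, with a range of -1.64 to 0.73. Left out one at a time, the libraries kept this median between -0.32 and -0.26. Signs of single genes were less steady: 22 members stayed negative and 4 stayed positive whichever library was left out, and 17 changed sign.

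No member passed the test on its own. With Benjamini-Hochberg adjustment over all genes, edgeR called 0 members in HSCs, and its percentage over all genes tested was 0%. At an unadjusted p under 0.05 there were 2 members, Mcm5 and Pola1, where 6.39% of all genes tested reached that level. DESeq2 called 1 member, Mcm5, and 1.01% of all genes to which it gave an adjusted p. Complete separation of the groups was seen with Cre positive lower for 8 members (Mcm4, Mcm5, Gins3, Rfc3, Rfc5, Fen1, Chaf1a and Slbp), against 9.33% of all genes tested, and with Cre positive higher for 1 (Pola1), against 6.37%. These separations, and the shares beside them, are on TMM scaling. On library totals Gins3, Rfc3, Rfc5 and Chaf1a overlapped, with Cre positive replicate 1 above Cre negative replicate 1. The heat map of all members and the plot of their differences show the TMM-scaled values gene by gene.

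**Figure D1:**
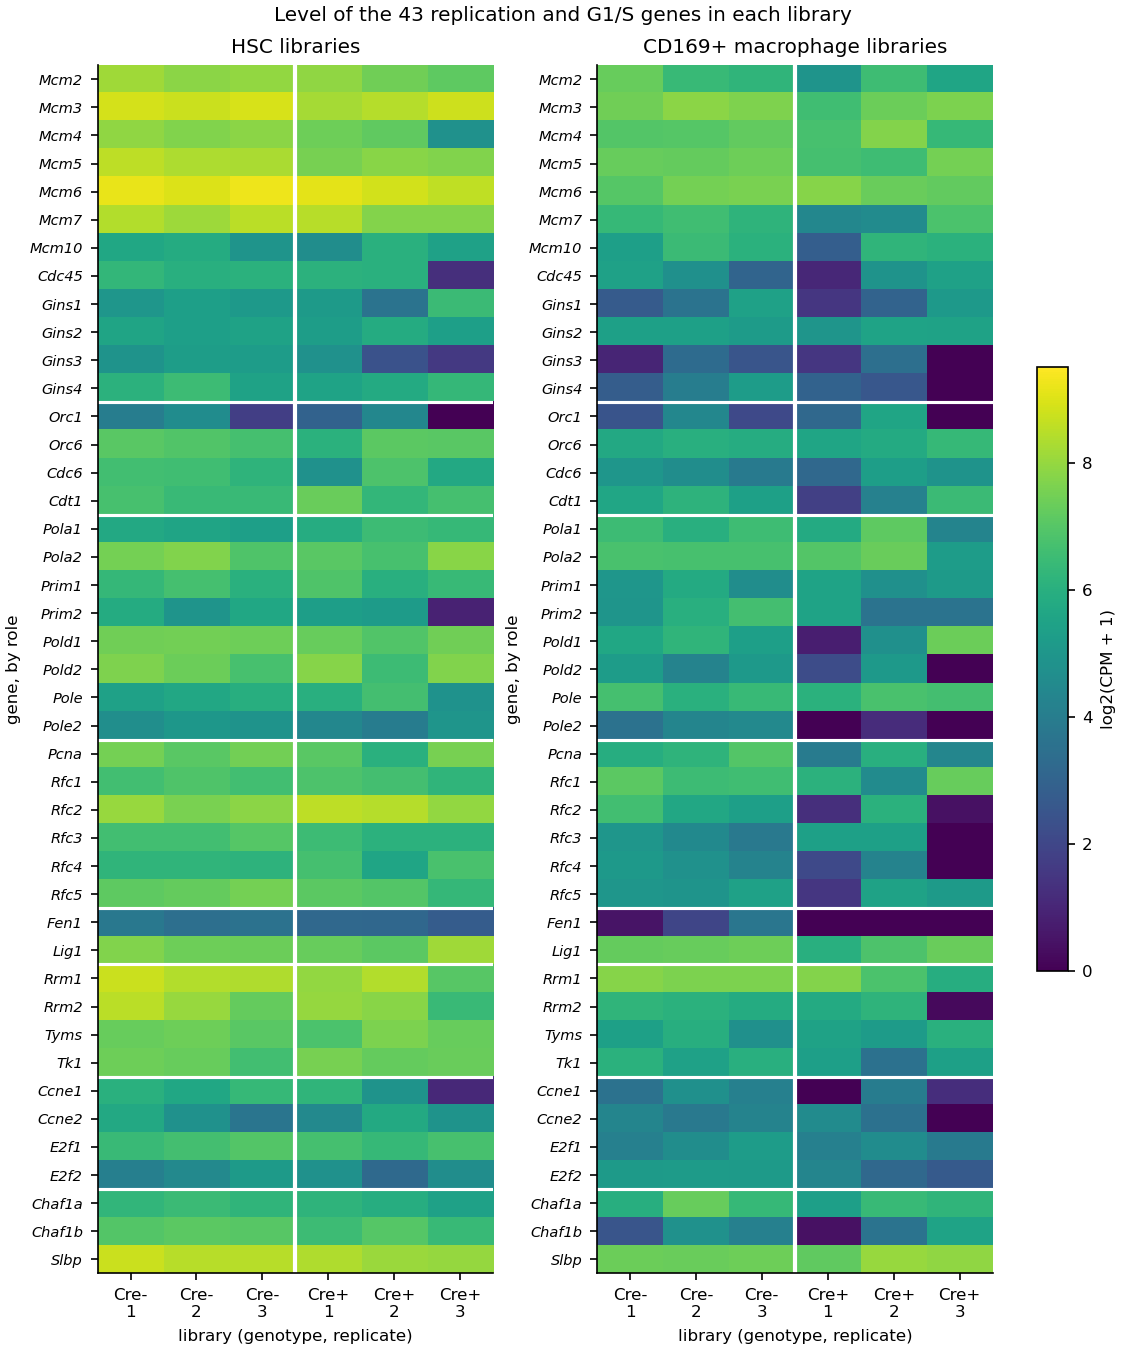
Level of each member in each library, as log2(CPM + 1), for HSCs (left) and CD169+ macrophages (right). Columns are libraries, Cre negative replicates 1 to 3 and then Cre positive replicates 1 to 3, and rows are genes in blocks by role. Mcm3 and Mcm6 are brightest in HSCs, and dark cells, where a gene is at or near 0, stand mostly in HSC Cre positive replicate 3 and macrophage Cre positive replicates 1 and 3.

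**Figure D2:**
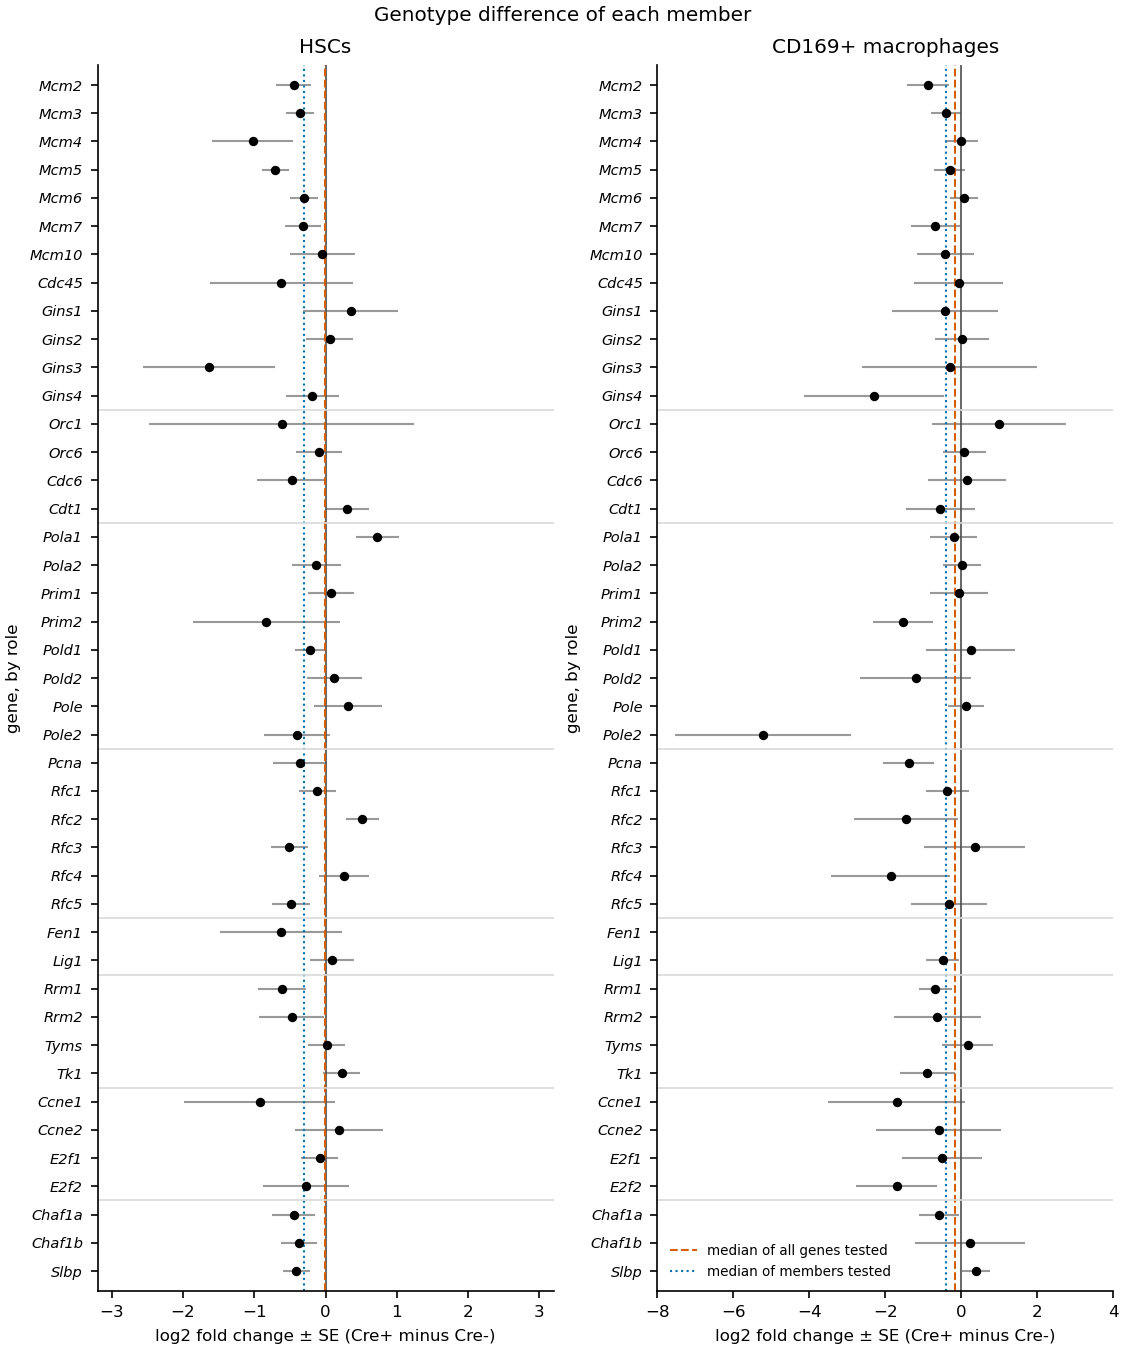
Log2 fold change of each member, Cre positive minus Cre negative, with its standard error, from the edgeR fit of each sort. The dashed line is the median of all genes tested (-0.00 in HSCs and -0.16 in macrophages), the dotted line that of the members (-0.30 and -0.41), the axes differ between the panels, and Fen1 was not tested in macrophages.

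The ring of MCM2 to MCM7, the core of the replicative helicase, was lower as a sum in the HSC libraries labelled Cre positive. All 6 genes had negative log2 fold changes, from -1.02 (Mcm4) to -0.30 (Mcm6), and all 6 stayed negative under each of the 12 alternative fits of this sort. Their summed level was 2303, 1980 and 2249 CPM in the controls against 1802, 1561 and 1405 CPM. Mcm5 measured 378, 319 and 316 CPM against 187, 226 and 209 CPM. Every library labelled Cre positive thus lay below every Cre negative one, with a log2 fold change of -0.70 ± 0.19 (SE; edgeR unadjusted p = 0.00533, adjusted p = 0.689). DESeq2 gave -0.68 with an adjusted p of 0.0435.

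Mcm2 measured 282, 229 and 247 CPM against 243, 171 and 140 CPM (log2 fold change -0.45 ± 0.25, SE; edgeR unadjusted p = 0.108, adjusted p = 0.853). The groups overlapped through replicate 1 of the Cre positive label. Mcm3 measured 477, 431 and 481 CPM against 296, 348 and 435 CPM, with overlap through replicate 3 (log2 fold change -0.36 ± 0.20, SE; edgeR adjusted p = 0.848). Mcm4 measured 244, 208 and 230 CPM against 167, 143 and 26.6 CPM, and its lowest library set the size of the difference. Mcm6 at 380 to 613 CPM and Mcm7 at 214 to 361 CPM overlapped between the groups. The plot of the 6 ring genes shows their libraries.

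**Figure D3:**
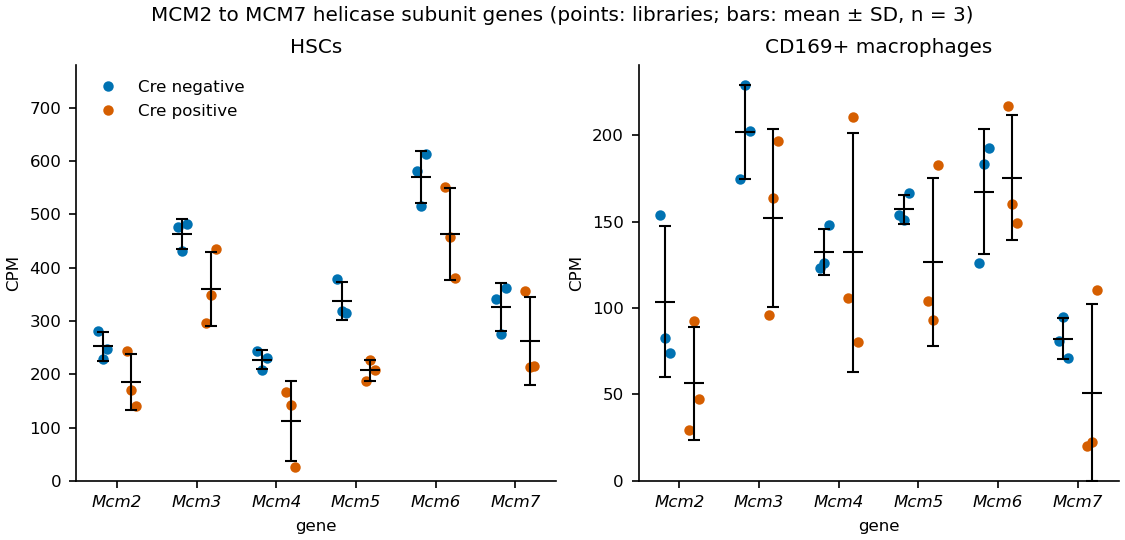
CPM of the MCM2 to MCM7 genes in HSCs (left) and CD169+ macrophages (right), with 1 point per library and bars for the mean ± SD (n = 3). In HSCs, Mcm4 and Mcm5 separate the groups completely, and in macrophages no gene of the ring does.

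The partners of the ring in the active helicase did not move as 1 group in HSCs. Of the 4 GINS genes 2 were negative and 2 positive. Gins3 had the most negative value of all members, at 28.8, 38.3 and 37.4 CPM against 27.3, 4.21 and 2.01 CPM (log2 fold change -1.64 ± 0.93, SE; edgeR adjusted p = 0.866). Cdc45, which joins the ring at firing, measured 62.6 to 76.8 CPM in 5 libraries and 1.43 CPM in Cre positive replicate 3. Mcm10, needed for helicase activation, was at -0.05 on the log2 scale. The 4 GINS genes summed to 172, 210 and 159 CPM against 144, 127 and 209 CPM, with overlap. The 12 MCM and GINS genes together, the ring among them, summed to 2601, 2309 and 2504 CPM against 2038, 1817 and 1658 CPM, without overlap.

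The loading factors overlapped between the HSC groups. Cdt1, which brings the ring to origins, measured 104, 85.2 and 86.1 CPM against 159, 76.6 and 104 CPM, and its positive log2 fold change (0.30 ± 0.31, SE; edgeR adjusted p = 0.981) rested on Cre positive replicate 1. Cdc6 measured 27.1 to 113 CPM over the 6 libraries. Orc1, the largest origin recognition subunit, was among the least abundant members, at 15.3, 23.6 and 2.36 CPM against 7.0, 19.9 and 0 CPM. Orc6 measured 65.4 to 137 CPM.

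The polymerase genes were evenly divided in HSCs, 4 negative and 4 positive, with a median log2 fold change of -0.03. Pola1, the catalytic subunit of polymerase alpha, was the only member higher without overlap, at 52.6, 46.3 and 39.7 CPM against 58.4, 89.8 and 81.0 CPM (log2 fold change 0.73 ± 0.30, SE; edgeR unadjusted p = 0.0426, adjusted p = 0.775). It stayed positive when any 1 library was left out. Pold1, the catalytic subunit of polymerase delta, measured 175, 175 and 168 CPM against 155, 120 and 172 CPM. Pole2, a subunit of polymerase epsilon, measured 25.1, 31.4 and 28.4 CPM against 19.9, 14.7 and 29.9 CPM. The groups overlapped for both Pold1 and Pole2. Prim2, a primase subunit, was at 29.6 to 56.0 CPM in 5 libraries and at 0.860 CPM in Cre positive replicate 3.

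On the clamp side, Pcna, the gene of the sliding clamp, measured 180, 134 and 179 CPM against 135, 63.8 and 187 CPM in HSCs (log2 fold change -0.35 ± 0.38, SE; edgeR adjusted p = 0.981). The highest and the lowest of these libraries both carried the Cre positive label. The 5 subunits of the clamp loader RFC did not share a direction. Rfc2 measured 259, 189 and 232 CPM against 379, 346 and 246 CPM, with overlap through replicate 3 (log2 fold change 0.52 ± 0.23, SE; edgeR unadjusted p = 0.0571, adjusted p = 0.793). Rfc3 was at 96.9, 97.5 and 127 CPM against 90.5, 67.6 and 68.4 CPM, and Rfc5 at 142, 151 and 181 CPM against 137, 123 and 78.7 CPM. Both were lower without overlap on TMM scaling, though not on library totals. Rfc2, and Rfc4 at 0.26 on the log2 scale, were positive.

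Of the Okazaki fragment genes, Fen1, the flap nuclease, measured 13.0, 10.2 and 10.9 CPM against 8.35, 7.96 and 5.77 CPM in HSCs, without overlap (log2 fold change -0.63 ± 0.86, SE; edgeR adjusted p = 0.996). Exons of a gene on the opposite strand share 78.8% of its exon length, and strand use in counting is not given in the sources used here, so its reads are uncertain. The same holds for Gins2 (67.3%) and Chaf1a (52.5%). Lig1, the ligase that joins the fragments, measured 135 to 284 CPM.

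Nucleotide synthesis genes were split 2 to 2 in HSCs. Rrm1, the large subunit of ribonucleotide reductase, measured 427, 337 and 327 CPM against 246, 340 and 130 CPM (log2 fold change -0.61 ± 0.34, SE; edgeR adjusted p = 0.856). Only replicate 2 of the Cre positive label reached the Cre negative range. Rrm2, its small subunit, was at -0.47 on the log2 scale. Tyms (thymidylate synthase) and Tk1 (thymidine kinase) were at 0.01 and 0.23.

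The G1/S regulators overlapped between the HSC groups. E2f1, an activating E2F, measured 84.9, 99.7 and 123 CPM against 103, 81.3 and 106 CPM, the smallest difference of the 4 genes (log2 fold change -0.08 ± 0.26, SE; edgeR adjusted p = 0.996). Ccne1, the gene of cyclin E1, measured 64.2, 49.8 and 81.6 CPM against 73.3, 28.7 and 1.12 CPM. Ccne2, which encodes cyclin E2, measured 51.9, 27.1 and 11.8 CPM against 21.2, 53.9 and 28.4 CPM. The Ccne1 difference (-0.92 ± 1.06, log2 scale, SE) came with 1 library near 0, and that of Ccne2 (0.19 ± 0.62) had the opposite sign.

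Histone supply genes had 3 negative values of 3 in HSCs, with a median of -0.41 on the log2 scale. Slbp, which binds the stem-loop of histone mRNA, measured 426, 357 and 352 CPM against 330, 268 and 257 CPM, without overlap (log2 fold change -0.41 ± 0.19, SE; edgeR unadjusted p = 0.0652, adjusted p = 0.806). The chromatin assembly factor genes Chaf1a and Chaf1b were at -0.45 and -0.37, and all 3 genes stayed negative when any 1 library was left out. Their summed level with Slbp was 623, 583 and 556 CPM against 493, 456 and 381 CPM.

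Cre positive replicate 3 was the HSC library with most members far below the others. Under 0.25 times the median of the other 5 HSC libraries stood 6 of 43 members there (Mcm4, Cdc45, Gins3, Orc1, Prim2 and Ccne1), 1 in Cre positive replicate 2 and 1 in Cre negative replicate 3. The other 3 libraries had 0. The same measure over all genes tested was 4.31%, 4.61% and 8.83% in the Cre negative libraries. Under the Cre positive label it was 9.37%, 14.7% and 21.2%, without overlap, so low values were not particular to the members. Of all genes tested, 1.18%, 2.40% and 5.17% were at 0 reads in the controls, against 5.32%, 8.71% and 13.3%. The part of these low values in the members' differences was not tested. Without Cre positive replicate 3 the members' median was -0.26 and all 6 ring genes stayed negative (-0.71 to -0.18). The plot of low genes by library gives both shares.

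**Figure D4:**
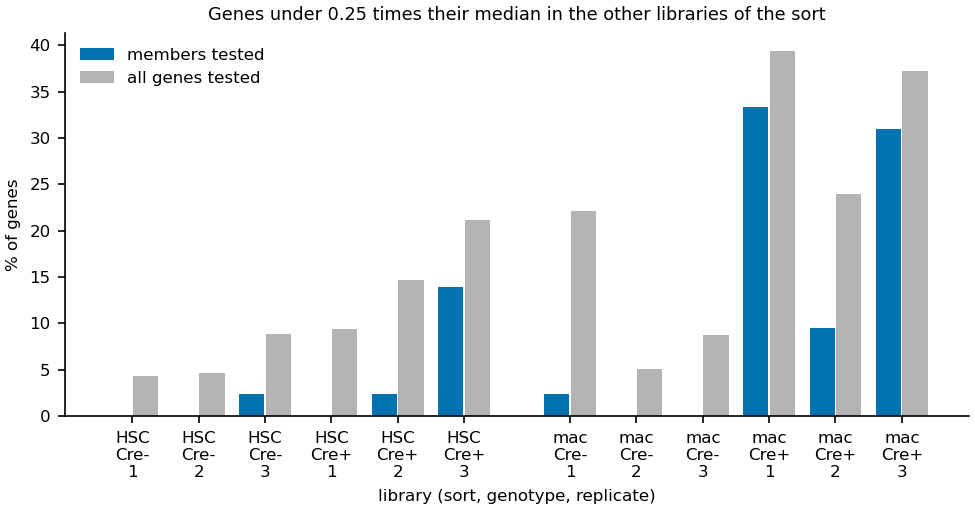
Share of genes whose CPM in a library was under 0.25 times their median in the other 5 libraries of the sort, for the members tested (blue) and all genes tested (grey). The share over all genes is highest in macrophage Cre positive replicates 1 (39.4%) and 3 (37.2%), where the members reach 33.3% and 31.0%.

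In macrophages the members were on average lower in the Cre positive libraries too, by a margin that depended on scaling. Their summed level was 2788, 2956 and 2895 CPM against 1810, 2592 and 2434 CPM, without overlap (means 2880 ± 85.2 and 2279 ± 413 CPM, SD, n = 3 each). As a share of all counted reads, with no TMM scaling, they took 0.279%, 0.258% and 0.255% against 0.193%, 0.266% and 0.261%, with overlap. By that share only Cre positive replicate 1 lay below all Cre negative libraries. Of the 42 members tested, 30 had a negative log2 fold change, where 56.1% of the 17806 genes tested were negative. The members' median was -0.41 against -0.16 over all genes tested. Scaled by library totals, these medians were -0.19 and 0.05. Thinned to an equal depth of 2602934 reads per library, they were -0.30 and -0.01.

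The gap between the members and all genes changed sign with single macrophage libraries. Without Cre positive replicate 1 the members' median was -0.25 and that of all genes tested -0.38. Leaving out replicate 2 gave -0.53 and -0.63, so that in both fits the members stood above the genes at large. Without replicate 3 the medians were -0.72 and -0.43. Without Cre negative replicate 1, which differed from its group in markers of other cells, they were -0.50 and -0.16. By the sign of single genes, 21 members stayed negative and 1 positive whichever library was left out, and 20 changed sign.

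The edgeR test called 0 members in macrophages, where it also called 0% of all genes tested. At an unadjusted p under 0.05 there was 1 member, Pole2, against 5.42% of all genes tested, and DESeq2 called 0 members and 0.46% of the genes to which it gave an adjusted p. Of the 42 members that passed the filter on low counts, 13 reached its level in all Cre negative but not in all Cre positive libraries, and 0 the other way round, so the counts and medians over members that passed are descriptions. On TMM scaling Pole2, Tk1 and E2f2 were lower without overlap among the members tested, a count of 3 against 11.8% of all genes tested. None was higher without overlap, against 2.27%. Nothing is read from these counts, which lie near those of genes at large.

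Pole2 was close to absent from the Cre positive macrophage libraries. It measured 10.8, 19.1 and 21.3 CPM against 0, 1.30 and 0 CPM (log2 fold change -5.21 ± 2.31, SE; edgeR adjusted p = 0.824). It reached the filter level in 3 Cre negative libraries and 1 Cre positive one, so the group where it was high kept it in the test, and its p is not read as support. Without Cre positive replicate 2, the library that held its reads in that group, the fitted value was -10.88. A count of 3 reads corresponds to 0.522 to 1.08 CPM in these Cre positive libraries, and this floor covers counting error only. The other polymerase genes overlapped between the groups. Prim2 measured 29.8, 62.4 and 101 CPM against 44.3, 11.2 and 11.3 CPM (log2 fold change -1.54 ± 0.80, SE; edgeR unadjusted p = 0.0705). Pold2, a delta subunit, was at 36.9, 18 and 33.5 CPM against 3.6, 34.6 and 0 CPM.

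Fen1 had 0 reads in all 3 Cre positive macrophage libraries and was removed by the filter on low counts. Its Cre negative libraries held 0.405, 2.99 and 12.2 CPM. No fold is given, since Cre negative replicate 1 lay below the Cre positive floor of 3 reads and replicate 3 held most of the signal, and its reads are uncertain for the overlap named above. Lig1 measured 150, 155 and 170 CPM against 62.6, 113 and 161 CPM.

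Cyclin E and E2F genes had the most negative median of the roles in macrophages, -1.15 on the log2 scale, and all 4 were negative. Their summed level was 81.7, 99.4 and 107 CPM against 58.7, 57.6 and 21.1 CPM, without overlap, also on library totals. E2f2, an activating E2F, measured 34.9, 35.7 and 35.3 CPM against 19.1, 8.18 and 5.39 CPM. Its Cre negative libraries agreed closely and all Cre positive ones lay below them (log2 fold change -1.70 ± 1.06, SE; edgeR unadjusted p = 0.127). E2f1 measured 16.6, 24.1 and 37.0 CPM against 16.6, 23.8 and 14.3 CPM. Ccne1 measured 11, 26.3 and 16.7 CPM against 0, 15.1 and 1.39 CPM, and Ccne2 19.2, 13.4 and 18.3 CPM against 23.0, 10.6 and 0 CPM. These 3 genes overlapped between the groups.

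Pcna measured 59.8, 71.6 and 122 CPM against 14.4, 62.7 and 19.3 CPM in macrophages (log2 fold change -1.39 ± 0.67, SE; edgeR unadjusted p = 0.0539, adjusted p = 0.954). Cre positive replicate 2 overlapped the Cre negative range and replicates 1 and 3 lay far below it. The clamp and its loader together summed to 387, 291 and 329 CPM against 131, 255 and 212 CPM, without overlap on TMM scaling. On library totals these sums were 388, 253 and 289 against 139, 262 and 227 CPM, with overlap. Rfc4 measured 33.6, 26.8 and 18.1 CPM against 3.24, 18.2 and 0 CPM. Rfc2 measured 66.0 CPM in Cre positive replicate 2 but 1.44 and 0.348 CPM in the other two.

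The helicase genes of macrophages did not separate one by one. Mcm2 measured 154, 82.9 and 74.1 CPM against 29.5, 92.8 and 47.2 CPM (log2 fold change -0.87 ± 0.55, SE; edgeR unadjusted p = 0.132). Its value was -0.48 without Cre negative replicate 1 and -1.47 without Cre positive replicate 2. Mcm3 measured 175, 229 and 202 CPM against 95.7, 164 and 197 CPM. Mcm4 and Mcm6 were at -0.00 and 0.07 on the log2 scale, and on library totals 4 of the 6 ring genes rather than 5 were negative. Summed, the ring was at 813, 867 and 855 CPM against 572, 744 and 767 CPM, without overlap on TMM scaling. Scaled by library totals the same sums were 814, 756 and 752 against 611, 764 and 821 CPM, with overlap. Gins4 measured 6.02, 15.3 and 36.9 CPM against 6.84, 5.02 and 0 CPM.

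Licensing genes had a positive median in macrophages (0.11 on the log2 scale), with 3 positive values and 1 negative. The positive ones were Orc1 (0.99), Cdc6 (0.15) and Orc6 (0.08), and Orc1 was at -1.20 without Cre positive replicate 2. The negative one was Cdt1 (-0.55), at 48.1, 70.1 and 41.7 CPM against 2.52, 17.3 and 88.7 CPM. The Cre positive libraries of Cdt1 lay on both sides of the Cre negative ones. Rrm1 measured 219, 196 and 196 CPM against 212, 111 and 58.8 CPM. Tk1 measured 66.3, 42.5 and 62.4 CPM against 40.3, 10.6 and 41.1 CPM (log2 fold change -0.90 ± 0.73, SE; edgeR unadjusted p = 0.234). It was lower without overlap on TMM scaling only. On library totals Cre positive replicates 1 and 3 lay above Cre negative replicate 2. Chaf1a measured 60.4, 158 and 81.1 CPM against 40.7, 83.1 and 73.1 CPM. Slbp ran the other way from HSCs, at 162, 160 and 170 CPM against 144, 261 and 241 CPM, with overlap through Cre positive replicate 1. The plot of summed levels by role sets the sorts side by side.

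**Figure D5:**
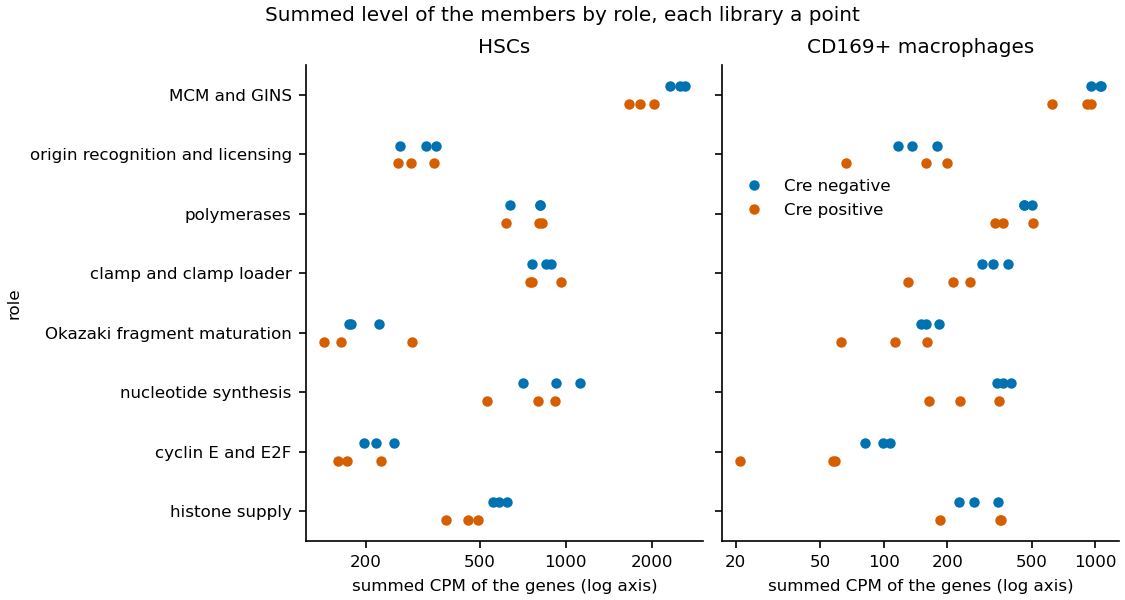
Summed CPM of the members of each role, 1 point per library, on log axes that differ between the panels, for HSCs (left) and CD169+ macrophages (right). The groups separate for MCM and GINS and for histone supply in HSCs, and for clamp and clamp loader (on TMM scaling, as plotted) and for cyclin E and E2F in macrophages.

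Cre positive macrophage libraries had no reads at all for some members. Members at 0 reads numbered 3, 1 and 9 in Cre positive replicates 1 to 3 and 0 in each Cre negative library, and thinning to equal depth left the latter at 0. Of all genes tested, 30.4%, 14.7% and 27.0% were at 0 reads in those Cre positive libraries, against 13.4%, 1.03% and 2.82%. In Cre positive replicate 1, 14 of 42 members were under 0.25 times their median in the other libraries, and in replicate 3 there were 13. The part of these missing transcripts in the differences was not tested.

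Whether genotype differences changed between the sorts was tested as an interaction over 20128 genes found in both tables. edgeR called 14 genes (0.0696%) and 0 members at an adjusted p under 0.05. At an unadjusted p under 0.05 there were 2 members, Pole2 and Fen1, against 8.62% of all genes tested. Both were at or near 0 in the Cre positive macrophage libraries and entered the fit through the other groups, so nothing is read from their p. For Pole2 the difference, macrophage minus HSC, was -4.81 ± 1.91 on the log2 scale (SE; edgeR interaction adjusted p = 0.529), and for Fen1 no size is given. Next came Slbp (0.78 ± 0.44), Tk1 (-1.16 ± 0.69) and Rfc4 (-2.14 ± 1.35). Tk1 in HSCs measured 170, 155 and 98.6 CPM against 186, 151 and 159 CPM, and Rfc4 73.6, 74.2 and 69.1 CPM against 104, 46.9 and 109 CPM, so that both had positive values in HSCs and negative ones in macrophages.

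Per kilobase of exon, the members' levels could be ranked within a sort. In Cre negative HSCs Mcm3 (123 ± 7.33 CPM per kb, SD, n = 3) and Mcm6 (122 ± 10.6) stood first and did not differ beyond their spread. Rrm2 (94.3 ± 39.1), Mcm5 (84.6 ± 8.84) and Pold2 (83.5 ± 26.1) followed with overlapping spreads. Orc1 (3.95 ± 3.07) was last. Mcm3 (53.8 ± 7.23 CPM per kb) also led in Cre negative macrophages, followed by Mcm5 (39.4 ± 2.12) and Lig1 (37.1 ± 2.47).

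A wider list of 68 further replication and G1/S genes gave 42 negative and 26 positive values in HSCs, with a median of -0.16 on the log2 scale. In HSCs 8 were lower and 2 higher without overlap (9.33% and 6.37% of all genes tested), and edgeR called 0 after adjustment. The smallest p belonged to Rbl1, which encodes the pocket protein p107, at 46.7, 77.1 and 65.6 CPM against 32.2, 27.4 and 36.4 CPM (log2 fold change -0.98 ± 0.34, SE; edgeR unadjusted p = 0.0208, adjusted p = 0.689). Ccnd2, the gene of cyclin D2, measured 274, 246 and 473 CPM against 413, 533 and 667 CPM (0.70 ± 0.30, log2 scale, SE; edgeR unadjusted p = 0.0486). Cdk2, the kinase partner of cyclin E, measured 189, 162 and 249 CPM against 168, 126 and 112 CPM. Rbl1 separated the groups, whereas Ccnd2 and Cdk2 overlapped.

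In macrophages 45 of these 68 genes were negative and 23 positive, with a median of -0.13 that did not lie below the -0.16 of all genes tested. There 7 were lower and 0 higher without overlap (11.8% and 2.27% of all genes tested), and edgeR called 0 after adjustment. The 3 with the smallest p follow as values only. Rnaseh2b, a subunit of the RNase H2 that removes RNA from DNA, measured 24.7, 26.9 and 45.5 CPM against 2.16, 7.25 and 0 CPM (edgeR unadjusted p = 0.0461, adjusted p = 0.899). Pole4, another epsilon subunit, measured 29.3, 41.8 and 23.6 CPM against 2.52, 0.930 and 12.2 CPM. Shmt1, a folate-cycle enzyme that serves thymidylate synthesis, measured 29.1, 19.4 and 27.3 CPM against 0, 5.95 and 2.61 CPM. All 3 were lower without overlap.

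Genes of mitosis and G2/M, read as a second set of cell cycle genes, did not separate by genotype. Their 25 members summed to 5141, 5616 and 3827 CPM against 4759, 5057 and 4422 CPM in HSCs, and to 6136, 4365 and 4715 CPM against 6287, 4932 and 5324 CPM in macrophages. Their median log2 fold changes were -0.13 in HSCs and 0.15 in macrophages. The ratio of the replication sum to the mitosis sum was 1.32, 1.08 and 1.56 against 1.21, 1.03 and 1.11 in HSCs, and 0.454, 0.677 and 0.614 against 0.288, 0.525 and 0.457 in macrophages. It overlapped between the groups in both sorts. In bulk samples fewer cycling cells and less RNA per cell cannot be told apart.

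Genes used as markers of other cells had reads in both sorts, and how far the sorted cells themselves express them was not tested. The 8 HSC gate and identity genes summed to 511 to 1142 CPM in the HSC controls and 672 to 986 CPM under the Cre positive label. They include Cd48, whose product the sort excludes, so their sum is not a measure of HSC identity. Their HSC log2 fold changes were 4 negative and 4 positive, from -2.23 to 0.79, with 1 gene lower without overlap. In HSC libraries 9 endothelial markers summed to 4322 to 9175 CPM in the Cre negative and 4411 to 5845 CPM in the other group, and 12 erythroid markers to 1014 to 1831 and 1397 to 1885 CPM. The 10 macrophage markers summed to 1435 to 1623 and 753 to 2113 CPM there, and 8 hepatoblast markers to 1382 to 3167 and 1632 to 2499 CPM. The 8 stellate and mesenchymal markers summed to 339 to 760 and 307 to 465 CPM in the same libraries. By gene, 7 of these 8 had negative HSC values (median -0.94 on the log2 scale, 2 at an edgeR unadjusted p under 0.05), as had 6 of the 9 endothelial markers (median -0.26, 3 lower without overlap and 3 at that p), while 7 of the 12 erythroid markers were positive. In macrophages 10 macrophage markers summed to 650, 4597 and 3634 CPM against 755, 712 and 2130 CPM, below the 8177 to 14058 and 10854 to 14522 CPM of the endothelial markers. All 10 macrophage markers had negative log2 fold changes there, with overlap between the groups in each. Stellate and mesenchymal markers summed to 1631, 183 and 277 CPM against 100, 67.1 and 57.3 CPM, without overlap, with all 8 negative, and 8 hepatoblast markers reached 3874 CPM in Cre negative replicate 1. Of the 61 markers, Gp1bb, a platelet gene, was the only one at 0 in all macrophage libraries. The part of other cells in the members' differences was not tested.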

How the data were processed

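RNA was measured in 12 libraries of 4 groups (2 sorts by 2 genotypes, 3 libraries each). The authors deposited 1 table of raw, unnormalized read counts for each sort. The submitters' processing notes name STAR 2.7.6a, featureCounts and Subread 2.0.1 with GRCm38 for HSCs, and only mm10 for macrophages. Not given in the sources used here are the macrophage aligner and counter, strand use and the treatment of multiply mapped reads. Libraries were prepared with a SMART-Seq v4 kit, per the labels' protocols, and hold amplified reads with no molecular identifier.

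Identifiers were named with GENCODE M21, which left 127 HSC and 4907 macrophage identifiers unnamed, and 0 columns were without a sample. Each sort was fitted alone in R 4.3.3 with edgeR 4.0.16 (filterByExpr, TMM, robust quasi-likelihood test, Benjamini-Hochberg over all genes tested, threshold 0.05). A standard error is the absolute log2 fold change over the square root of F. The interaction fit took all 12 libraries over 32210 shared identifiers. The edgeR fit of each sort was tested on simulated data, and the interaction and DESeq2 fits were not. DESeq2 1.42.0, other scalings, no filter, the replicate number as a block, thinning of macrophage counts and leaving out each library were the alternatives. Sums by role on library totals were added after the data were seen. A count of 3 reads was 0.0386 to 0.0561 CPM in HSCs, 0.138 to 0.174 in Cre negative and 0.522 to 1.08 in Cre positive macrophages. Counts of libraries of 1 group differed by more than sampling noise (chi-square per degree of freedom 51.2 to 831), so none was merged.

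The members and lists were chosen with earlier results of these data known. Values in every library are given, in each role and sort, for the member with the smallest unadjusted p (the 3 smallest in MCM and GINS and in polymerases), for members with 0 reads in 2 or more libraries, for the 5 with the smallest interaction p and for E2f1, Ccne1, Ccne2, Pcna and Mcm2, with the 3 smallest p of the other pathway genes. Other members given with single values, such as Mcm4, Gins3, Orc1, Rfc3 and Rfc5 in HSCs and Rfc2 in macrophages, were added after their values were seen.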

Additional observations from a re-analysis of the deposited data

How the results depend on the processing

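Under the 12 HSC alternatives the members' median stayed negative (-0.35 to -0.25), and edgeR called 0 genes in the 11 that used it. DESeq2 called 133 HSC genes (27 higher, 106 lower) and 1 member, Mcm5, and 61 macrophage genes (10 higher, 51 lower) with 0 members. Macrophage calls were 21 with no filter on low counts and 1 to 34 with 1 library left out, the 34 without Cre positive replicate 3. Interaction calls were 8 on library totals, 107 with no filter and 6 to 210 with 1 library left out. Among them was 0 to 1 member. Rfc2 was called without macrophage Cre positive replicate 2 (log2 difference -6.87, edgeR adjusted p = 3.75e-05), where the main fit gave an edgeR adjusted p of 0.964. Leaving that library out kept only Cre positive replicates 1 and 3, with Rfc2 at 1.44 and 0.348 CPM, so nothing is read from this call.

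Same-numbered libraries were not shown to be pairs, since their deviations correlated at 0.0211, -9.32e-05 and -0.000502 in HSCs and at 0.0366, 0.00842 and 0.0212 in macrophages. With the replicate number as a block, edgeR called 0 HSC genes, 13 macrophage genes and 96 in the interaction, of which 1 was a member (Rfc2), and the macrophage members' median was -0.8569 beside -0.72 over all genes tested.

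With no filter, 10 of 43 macrophage members lay below the median of all genes (-1.14), since genes near 0 enter that fit. With 1 library left out the log2 fold change in HSCs ran from -0.0304 to 0.5146 for Cdt1, from -0.2095 to 0.0638 for E2f1 and from -0.2884 to 0.8233 for Ccne2, so each of the 3 changed sign; the cause was not tested. With any 1 library left out, the log2 fold change of 36 of 43 members in HSCs and 41 of 42 in macrophages changed sign or moved by over 1.5 times. A macrophage gene at 0 may lie below the floor of 3 reads.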
